A study of Mus musculus with 2 samples.

Results

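Neutrophils carry their antimicrobial proteins in granules that are filled while the cell matures in the bone marrow. Primary (azurophilic) granules are loaded first, secondary (specific) granules follow at the myelocyte and metamyelocyte stages, and gelatinase granules come last. A granule protein goes into whichever granule is being formed when its gene is transcribed, and the transcripts of secondary granule genes are largely gone from blood and tissue neutrophils, which keep the protein. The transcripts described here are those of 10 granule genes: Camp, Ngp, Ltf, Lcn2, Mmp8, Mmp9, Cd177, Pglyrp1, Chil3 and Retnlg. They were taken by symbol from the 28692 genes listed in the count files, and all 10 had counts.

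Single-cell RNA profiles were collected from GR-1+ cells (bearing Ly6C or Ly6G) of mammary fat pad tumors in young adult female BALB/c mice, all treated with anti-PD1. The tumors were grown from 4T1p, parental 4T1 cells (a triple-negative mammary carcinoma line) that resist this antibody, or from 4T1m, a polyclonal derivative made by exposure to the mutagen MNNG that responds to it. Magnetic beads were used to isolate the cells, and each tumor type gave 1 library made with 10x Genomics 3′ chemistry, in which each unique molecular identifier (UMI) stands for 1 captured transcript. How many mice contributed to a library is not given in the sources used here.

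With 1 library per condition no difference between the tumors could be tested, and the 95% intervals below cover counting error only. Each library has the median UMI count that the methods of the study give for the other condition, so the libraries are called by their file labels, on which each direction given here depends. There were 9021132 UMIs in 1641 barcodes labelled 4T1p and 14840190 UMIs in 2749 barcodes labelled 4T1m. Limits of 250 to 5000 detected genes, 27000 UMIs and 12.5% mitochondrial UMIs left 1128 and 2092 cells, and no kept barcode occurred in both libraries. Of these, 251 and 1023 cells fell in 4 granulocytic-like clusters, built with the 10 granule genes left out. All 8 granulocytic markers were detected there in both libraries (S100a8, S100a9, Csf3r, Cxcr2, G0s2, Hdc, Mxd1 and Il1r2). The clusters were named with these markers, so their detection is no separate support. All 10 monocytic markers also had UMIs there in both libraries. Summed erythroid markers stood at 28.7 CPM (UMIs of a gene or list scaled to a total of 1000000) in the granulocytic-like cells of the library labelled 4T1p and at 450 CPM in those of the library labelled 4T1m. The summed monocytic markers stood at 1292 and 1043 CPM, against 153741 and 159825 CPM for the granulocytic markers. The part of the erythroid and monocytic transcripts in the results was not tested.

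On the GRCm38 build, Camp (ENSMUSG00000038357, chr9:109847379-109849617, minus strand) encodes cathelicidin, the precursor of an antimicrobial peptide. Its relative Ngp (ENSMUSG00000032484, chr9:110419747-110423012, plus strand) encodes neutrophilic granule protein and lies 570 kb away. Ltf (ENSMUSG00000032496, chr9:111019271-111042767, plus strand) encodes the iron-binding lactoferrin and lies a further 596 kb along the chromosome. Lcn2 (chr2:32384633-32388252, minus strand) encodes lipocalin 2, which withholds iron by binding bacterial siderophores. The collagenase gene Mmp8 is at chr9:7558456-7568485 and the gelatinase B gene Mmp9 at chr2:164940780-164955850, both on the plus strand. Cd177 (chr7:24743983-24760311, minus strand) encodes a neutrophil surface glycoprotein that is also stored in secondary granules, and Pglyrp1 (chr7:18871331-18890459, plus strand) a peptidoglycan recognition protein. Chil3 (chr3:106147554-106167564, minus strand) encodes the chitinase-like protein Ym1, and Retnlg (chr16:48872621-48874496, plus strand) a resistin-like secreted protein. All 10 are annotated as protein-coding.

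C/EBP factors, C/EBPε among them, are known to drive secondary granule genes. The RefSeq promoter windows (250 bases before to 50 after the start, GRCm38.p6) of 9 of the 10 genes were searched on both strands for TTNNGCAA, the longer part of a C/EBP site. It occurred in 3547 of all 32851 windows (10.8%) and in 5 of the 9: at -138 and -11 from the RefSeq start in Ngp, -75 in Ltf, -216 in Lcn2, -19 in Mmp8 and -246 in Retnlg. No match says only that these letters are not in the window, and a match is not a binding site. Below are the stretches upstream of the annotated starts for the neighbors Camp, Ngp and Ltf, whose transcripts marked the same few cells, and for Retnlg, which was low in the cells highest for Camp. Capitals mark the match on the printed strand or its reverse complement, and each is written 5′ to 3′ along its gene's strand, at chr9:109849618-109849706 (minus), chr9:110419558-110419746 (plus), chr9:111019042-111019270 (plus) and chr16:48872358-48872607 (plus). The -11 match of Ngp lies beyond the printed stretch.
Camp: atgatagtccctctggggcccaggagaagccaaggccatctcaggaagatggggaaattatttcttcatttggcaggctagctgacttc
Ngp: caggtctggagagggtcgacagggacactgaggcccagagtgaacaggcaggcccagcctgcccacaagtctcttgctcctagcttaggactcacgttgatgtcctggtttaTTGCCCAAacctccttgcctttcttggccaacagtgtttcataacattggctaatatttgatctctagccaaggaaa
Ltf: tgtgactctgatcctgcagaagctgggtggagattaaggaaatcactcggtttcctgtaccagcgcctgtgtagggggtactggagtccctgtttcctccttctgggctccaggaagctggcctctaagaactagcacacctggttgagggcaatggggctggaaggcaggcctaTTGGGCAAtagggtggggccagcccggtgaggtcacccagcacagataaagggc
Retnlg: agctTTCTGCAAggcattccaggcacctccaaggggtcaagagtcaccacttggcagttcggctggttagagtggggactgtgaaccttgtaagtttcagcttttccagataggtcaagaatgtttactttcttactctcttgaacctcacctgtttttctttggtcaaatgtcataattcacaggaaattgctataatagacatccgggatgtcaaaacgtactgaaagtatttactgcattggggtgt

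The 10 genes differed widely in how many cells carried their transcripts. Retnlg was the most abundant in granulocytic-like cells of both libraries together, at 6434 CPM (6355 to 6513), followed by Lcn2 at 3112 CPM, Ngp at 2817 CPM and Camp at 1832 CPM. Ltf at 827 CPM and Pglyrp1 at 744 CPM came next, then Mmp9 at 403 CPM, Mmp8 at 317 CPM, Cd177 at 155 CPM and Chil3 at 31.5 CPM (26.2 to 37.5). The intervals of neighbors in this order did not overlap. A 3′ UMI count is one per transcript, so it is not divided by gene length. For comparison, S100a8, the calgranulin subunit that fills the neutrophil cytosol, stood at 67430 CPM.

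Similar CPM hid very different distributions. After thinning each cell to 1000 UMIs, which left 1168 granulocytic-like cells (23 and 83 shallower cells of the libraries labelled 4T1p and 4T1m dropped out), Retnlg had a UMI in 613 cells (52.5%, exact binomial interval 49.6 to 55.4) and Lcn2 in 541 (46.3%, 43.4 to 49.2). Camp had one in 39 cells (3.34%, 2.38 to 4.54), Ngp in 75 (6.42%) and Ltf in 55 (4.71%). Thus Ngp and Lcn2, whose CPM were close, were found in 75 and 541 cells. Among all kept cells of both libraries, 7 cells held 50% of the Camp UMIs and 19 held 90%. Ngp needed 9 and 27 cells for the same shares, and Ltf 9 and 24. The spread was far broader for Lcn2 (30 and 277 cells), Retnlg (56 and 270), Mmp8 (71 and 292) and Mmp9 (64 and 358).

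**Figure D1:**
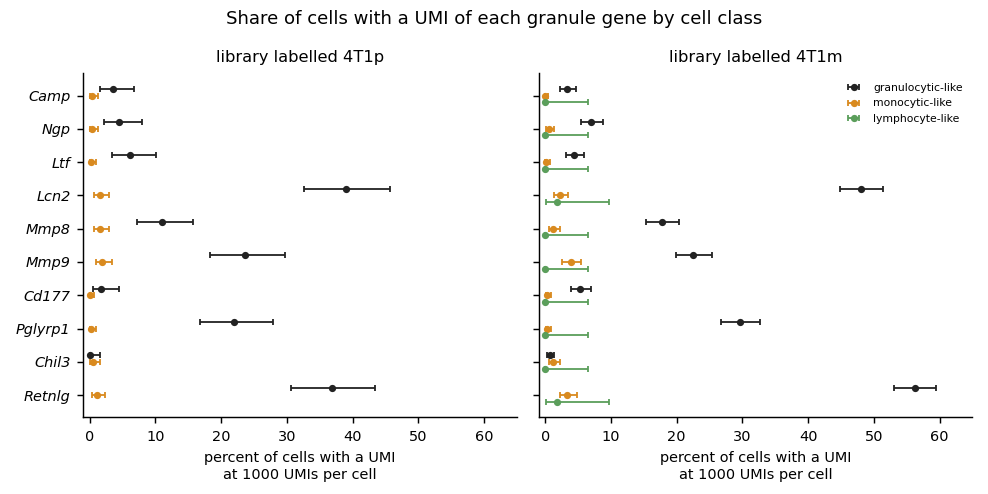
Percent of cells with at least 1 UMI of each granule gene (horizontal axis, cells thinned to 1000 UMIs) in granulocytic-like, monocytic-like and lymphocyte-like cells of the libraries labelled 4T1p (left) and 4T1m (right); points are shares and bars exact binomial 95% intervals, and the 8 lymphocyte-like cells of the library labelled 4T1p are not drawn. Lcn2 and Retnlg were found in 39.0% and 36.8% of granulocytic-like cells on the left and in 48.1% and 56.3% on the right, while Camp stayed at 3.51% and 3.30%.

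Nearly all Camp transcripts sat in 34 cells with at least 10 Camp UMIs, a limit set after the values were seen. The 8 such cells labelled 4T1p held 99.7% of that library's Camp UMIs, and the 26 labelled 4T1m held 98.96%. The lowest of the 34 had 10 Camp UMIs, and the highest value among the other cells of their main cluster was 7. In 33 of the 34 the cluster was the same, one of 169 cells led by Ly6g, Ifitm6, Ceacam10, Padi4 and Stfa3, which are genes of immature and young neutrophils. All 33 that could be placed among the granulocytic-like cells were in the earliest bin of the maturation axis described below. Ly6g and Ifitm6 are also among the early genes of that axis. None of the 34 was marked as a doublet, Csf1r, the receptor that defines monocytic cells, had at most 1 UMI (in 3 cells), and S100a8 had at least 412 UMIs in each. The cells were also rich in RNA, with medians of 15777 and 13150 UMIs against 2713 and 2481 in all granulocytic-like cells of the libraries labelled 4T1p and 4T1m. A limit on the Camp count favors cells with many UMIs, so this difference is partly set by the selection.

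Camp UMIs per cell among the 34 ran from 10 to 948 with a median of 150.5. Ngp ran from 27 to 1462 with a median of 235 and Ltf from 1 to 316 with a median of 73.5, and both had a UMI in all 34 cells. So the trio of neighbors on chromosome 9 was found together in every one of these cells. Lcn2 (5 to 485, median 179.5), Cd177 (1 to 30, median 10) and Pglyrp1 (2 to 81, median 34) were likewise detected in all 34. The exceptions were Mmp8, with a UMI in 24 cells, Mmp9 in 32, Chil3 in 21 and Retnlg in 33.

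Within these 34 cells the genes did not all rise and fall together. Ranked by Camp per 10000 UMIs, the top 12 cells had 31425 CPM of Camp (30650 to 32214), the middle 11 cells 13123 CPM and the lowest 11 cells 3371 CPM (3043 to 3725). From the top to the lowest group Ngp went from 38704 to 15008 CPM, Ltf from 10362 to 3713 CPM, and Lcn2 from 16972 to 12232 CPM. The ranking fixes the course of Camp itself. Cd177, at 912 CPM in the top and 771 CPM in the lowest group, and Pglyrp1, at 2715 and 2495 CPM, stood closer between these groups than Lcn2. Retnlg ran the other way, with 1053 CPM (915 to 1206) in the top 12 cells, 8049 CPM in the middle 11 and 24824 CPM (23918 to 25755) in the lowest 11. Its median count per cell was 10, 13 and 192 UMIs in these groups. The middle 11 ranged from 1 to 338 UMIs, so their pooled level came mostly from a few cells. Mmp8 stood at 146, 737 and 972 CPM in the same groups and had a UMI in 4 of 12, 9 of 11 and 11 of 11 cells. Cells with the most cathelicidin transcript therefore mostly lacked the collagenase transcript, and those with the least all had it.

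Over the 34 cells, Spearman's rho with the Camp share of a cell's UMIs was 0.79 for Ngp, 0.63 for Ltf, 0.25 for Lcn2, -0.56 for Mmp8 and -0.83 for Retnlg. The shares of one cell have a common total and the cells come from 2 libraries, so these are descriptions with no p-value. One of the 12 cells highest for Camp, in the library labelled 4T1p, departed from the rest: it had 231 Camp UMIs but only 5 of Lcn2, 1 of Cd177 and 1 of Retnlg, with 10 of Mmp8 and 16 of Mmp9.

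The proliferation genes Mki67 and Top2a, expressed by dividing precursors, had at least 2 UMIs each in 2 of the 34 cells, 1 in each library. These were the cells with the highest Camp counts. The one in the library labelled 4T1m had 931 Camp, 965 Ngp, 21 Mki67 and 20 Top2a UMIs, and the one in the library labelled 4T1p had 948 Camp, 1462 Ngp, 7 Mki67 and 16 Top2a UMIs. Neither had an Mmp8 UMI, and Retnlg had 12 and 2 UMIs. The cell of the library labelled 4T1p was grouped with a monocytic-like cluster led by Birc5, Ube2c and Top2a. It had 5090 S100a8 UMIs and 0 Csf1r UMIs, and why it was grouped there was not tested.

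**Figure D2:**
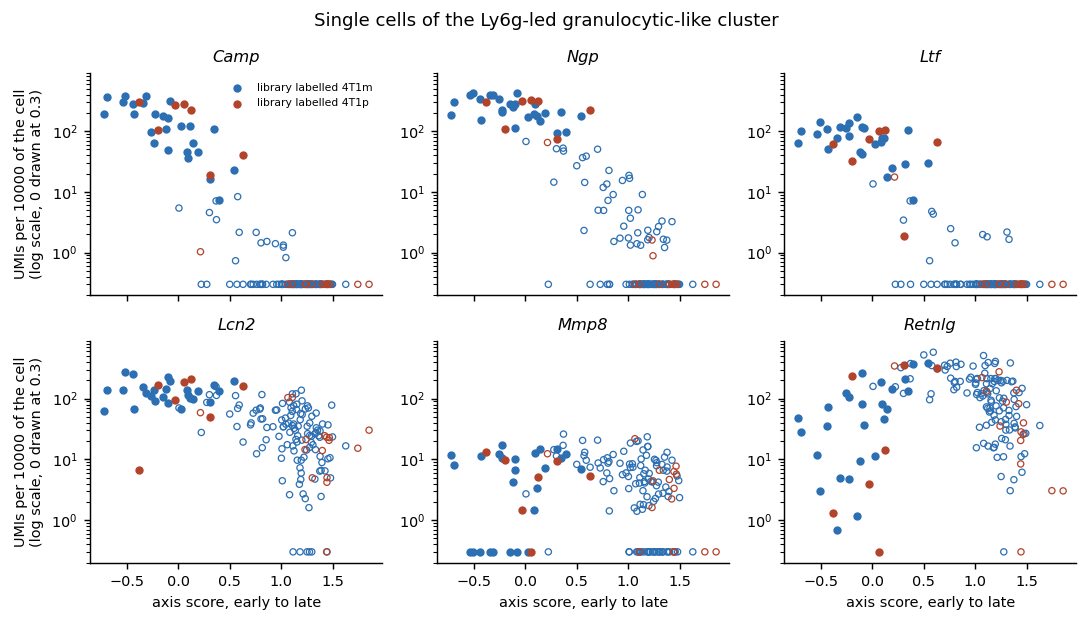
UMIs of 6 granule genes per 10000 UMIs of the cell (vertical log axis, 0 drawn at 0.3) against the maturation score (horizontal axis, early to late) for the 169 cells of the Ly6g-led cluster, 1 point per cell, filled where the cell had at least 10 Camp UMIs and colored by library. Camp, Ngp and Ltf fall away early along the score and Lcn2 reaches the latest cells. Retnlg is highest in between, at 27323 CPM in the second of 5 windows of the cluster against 8138 CPM in the first and 7556 CPM in the last.

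The order in which the genes came and went was read from a maturation axis that used none of the 10 genes. It was chosen with earlier results of these data known, and its early genes Ly6g and Ifitm6 also lead the cluster of most Camp-high cells. The early place of those cells is thus partly set by the gene lists. Each thinned granulocytic-like cell was scored by the mean log level of 13 late genes (such as Il1b, Csf2rb, Ccl6 and Junb) minus that of 11 early genes (such as Ifitm6, Ly6g, Anxa1 and Hmgn2), and the cells of both libraries were cut into 5 bins of 233 or 234. The earliest bin was mixed: it held 59 cells of the Ly6g-led cluster and also 116 cells of a cluster led by Ccdc126, Ciart and Tnfrsf23.

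The finest view came from 5 windows of 33 or 34 cells along the axis within the Ly6g-led cluster. Camp was at 18370 CPM (17942 to 18806) in the first window, 1088 CPM in the second, 20.7 CPM in the third, and had 0 UMIs in the last 2 windows. Ltf went from 7683 to 1229 and 10.3 CPM, with 3 UMIs in the fourth window and 0 in the last. Ngp was at 25730 CPM in the first window, 5125 CPM in the second and 77.5 CPM in the third, with 11 and 4 UMIs in the last 2. Beyond the second window no cell had more than 6 UMIs of any of these 3 genes.

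Lcn2 stepped down gradually over the same windows, from 13998 CPM to 8352, 4459, 3164 and 2053 CPM, and so outlasted the trio. Mmp8 was highest in the second window, at 947 CPM (828 to 1078) against 557 CPM (485 to 637) in the first and 339 CPM in the last. Retnlg also peaked there, at 27323 CPM (26667 to 27991) after 8138 CPM in the first window, and was down to 7556 CPM in the last. In the windows Camp, Ltf and Ngp thus fell away early, Mmp8 and Retnlg peaked after all 3, and Lcn2 was spread over all. Camp had 4 UMIs and Ltf 2 in the third window, and Ltf 3 in the fourth, so no order was read between Camp and Ltf. Medians of 10031, 6707, 5126, 4823 and 4080 UMIs per cell accompanied the windows, so RNA content declined along them, and its part was not tested. The windows held 7, 1, 2, 3 and 10 cells labelled 4T1p, and the part of this library make-up was not tested either. Cebpe, the gene of C/EBPε, stood at 86.7 CPM in the first window, 16.6 CPM in the second and 5.17 CPM in the third. It had no UMI in the later windows.

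Across all granulocytic-like cells the mean bin in which a gene's CPM lay, from 1 (earliest) to 5, was 1.01 for Camp, 1.02 for Ngp, 1.05 for Ltf and 1.09 for Chil3. Cd177 followed at 1.70, then Lcn2 at 2.06, Pglyrp1 at 2.28, Retnlg at 2.33, Mmp8 at 2.40 and Mmp9 at 2.69. Computed in each library alone, the position of Camp was 1.01 in both, that of Lcn2 1.93 and 2.09, and that of Mmp9 2.43 and 2.76 in the libraries labelled 4T1p and 4T1m. The first 4 places were held by Camp, Ngp, Ltf and Chil3, and the last by Mmp9, in all 8 ways in which the axis was built, whereas Pglyrp1, Lcn2, Retnlg and Mmp8 exchanged places between them. Ngp came before Ltf in 7 of the 8, although Ngp outlasted Ltf in the windows, so no order was read between these 2 genes.

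**Figure D3:**
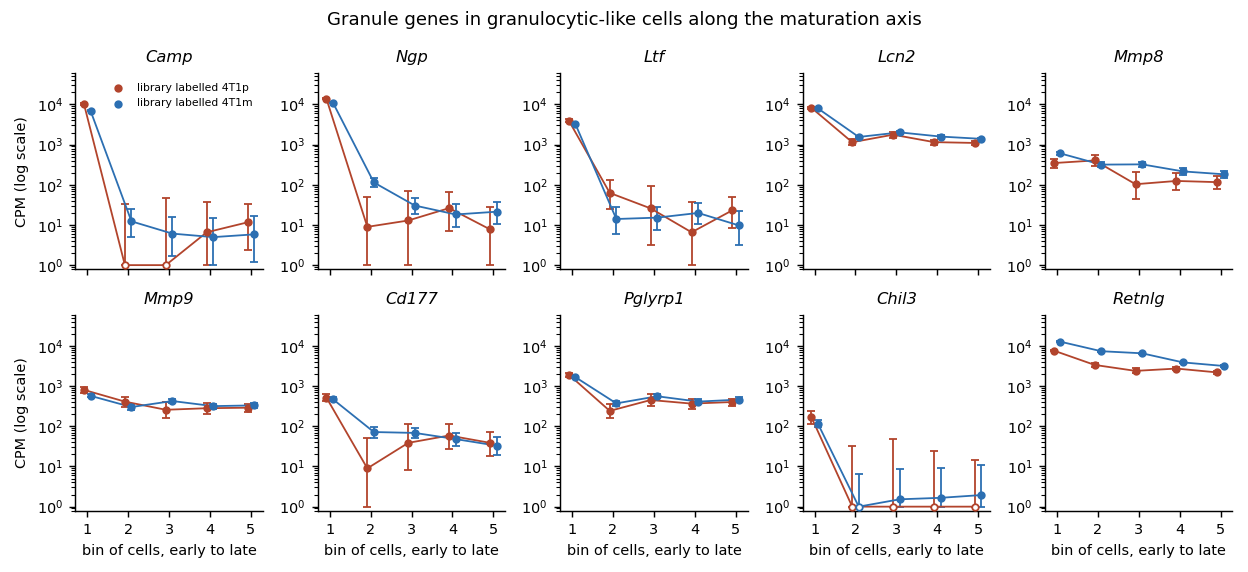
Level of each granule gene in CPM (vertical log axis) in the bins of the maturation axis (horizontal axis, 1 earliest to 5 latest) for granulocytic-like cells of the libraries labelled 4T1p and 4T1m; bars are exact Poisson 95% intervals and open points mark 0 UMIs, drawn at 1 CPM. Camp, Ngp, Ltf and Chil3 are high in the earliest bin alone. Over both libraries pooled, Retnlg declines from 11824 CPM in the first bin to 2852 CPM in the last. Mmp9 stays between 311 and 620 CPM when pooled, and its points by library range more widely.

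Between the earliest and the latest bin, 8 of the 9 members with enough UMIs for this comparison (at least 200 in both bins together) were more than 2-fold higher in the earliest. CPM pools the UMIs of a bin, and the earliest bin held the 33 placed Camp-high cells, which are rich in RNA. Of its 7697 Lcn2 UMIs, the middle 11 and lowest 11 of these gave 1615 and 1397. The top 12 by Camp had 3369 more, of which 420 were in the 1 Camp-high cell that was not placed in a bin. The ratios thus do not describe the whole bin evenly, and the comparison without these cells was not made. Among all 931 genes so compared, 5.37% were past 2-fold in this direction and 14.0% in the other. Camp, Ngp, Ltf, Cd177 and Mmp8 had fewer than 200 UMIs in the latest bin and met the minimum through the earliest. Among 4472 genes chosen by at least 50 UMIs in granulocytic-like cells, 10.8% and 8.83% were past 2-fold in these directions. The median log2 ratio was 2.64 over the 9 members, -0.21 over the 931 genes and 0.036 over the 4472. Camp had 7257 UMIs in the earliest bin and 6 in the latest (log2 ratio 9.93, 8.81 to 11.38), Ngp 11074 and 13, Ltf 3233 and 11, Cd177 459 and 27, and Lcn2 7697 and 1001 (log2 ratio 2.64, 2.54 to 2.73). Mmp9 was the exception among the 9, with 592 and 246 UMIs and a log2 ratio of 0.96 (0.75 to 1.18). Chil3 had 122 UMIs and 1 UMI and was too sparse for the count.

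Detection beyond the earliest bin separated the genes further. In the latest bin Lcn2 still had a UMI in 45.9% of thinned cells (39.4 to 52.6), against 51.3% in the earliest, although its CPM was 1296 there against 8065. Pglyrp1 was found in 32.6% and 29.1%, and Mmp9 in 20.6% and 23.9%. Camp was found in 0.429% of the latest cells, against 0.147% of monocytic-like cells of both libraries at the same depth, and its highest count in a cell was 2. So late granulocytic-like cells commonly kept low counts of Lcn2, Pglyrp1, Retnlg and Mmp9 transcripts and had next to none of Camp. Ngp and Ltf were each found in 1.72% of them, against 0.442% and 0.147% of monocytic-like cells at the same depth. Before thinning the latest bin held 6 UMIs of Camp, 13 of Ngp and 11 of Ltf, so no difference between these 3 genes was read.

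Co-detection followed the same nesting. Of the 39 thinned cells with a Camp UMI, 35 had Ngp (89.7%, 75.8 to 97.1), 92.3% had Lcn2 and 84.6% had Ltf, against 3.54% with Ngp among the 1129 cells without Camp. The reverse shares were lower: of the 75 cells with Ngp 46.7% had Camp, and of the 541 cells with Lcn2 12.2% had Ngp. Most Camp-positive cells were thus also Ngp-positive, and most Ngp-positive cells Lcn2-positive. Mmp8 was found in 41.0% of cells with Camp and 15.6% of those without, and Retnlg in 87.2% and 51.3%. Among the cells without Camp, 44.7% had Lcn2 and 1.95% had Ltf. At this depth a cell with a few transcripts often shows none, and the shares move with depth: without thinning, 75.8% of the cells with Camp had Ngp.

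**Figure D4:**
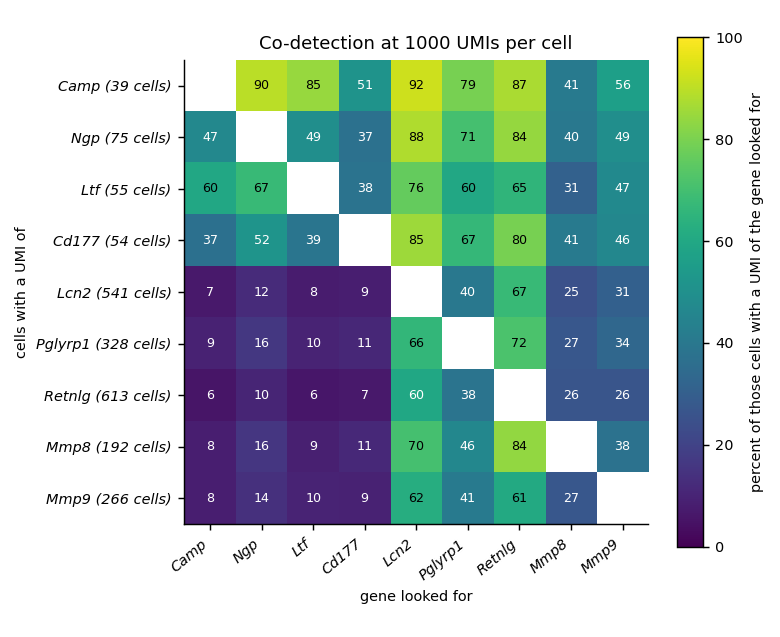
Percent of granulocytic-like cells with a UMI of the gene in a row (number of cells beside it, both libraries, thinned to 1000 UMIs per cell) that also had a UMI of the gene in a column; Chil3, found in 6 cells, is left out. Rows for Camp, Ngp and Ltf are high under Lcn2 (92.3%, 88.0% and 76.4%), while the Lcn2 row is low under Camp (6.65%).

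Most granulocytic-like cells had few of the 10 genes. None was detected in 31.6% of thinned cells of the library labelled 4T1p (25.6 to 38.0) and in 20.3% of those labelled 4T1m (17.8 to 23.0), and the medians were 1 and 2 genes. At least 5 of the 10 were found in 4.82% (2.43 to 8.47) and 6.91% (5.38 to 8.73), and all 10 in 2 cells, both in the library labelled 4T1m. The largest granulocytic-like cluster was not the same in the libraries: one led by Mirt1, Hdc and G0s2 held 102 of the 251 cells labelled 4T1p, and the one led by Ccdc126 and Ciart 335 of the 1023 cells labelled 4T1m. The Ly6g-led cluster held 9.16% and 14.3%.

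Between the libraries, Retnlg differed most. In granulocytic-like cells labelled 4T1p its level was 3776 CPM (3643 to 3913), and in those labelled 4T1m 7106 CPM (7014 to 7200), which gives a log2 ratio of 0.91 (0.86 to 0.97). After thinning it was detected in 36.8% of cells (30.6 to 43.5) against 56.3% (53.0 to 59.5). Mmp8 was next, at 208 CPM (178 to 242) against 345 CPM (325 to 366), with a log2 ratio of 0.73 (0.49 to 0.97) and detection in 25 of 228 and 167 of 940 thinned cells. Both values were higher in the library labelled 4T1m, and both genes were highest in the second window of the Ly6g-led cluster.

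Retnlg was higher in the library labelled 4T1m in 5 of 5 bins of the axis, with log2 ratios of 0.74, 1.13, 1.45, 0.51 and 0.53, and in 4 of 4 granulocytic-like clusters. The ratio was 1.81 (1.60 to 2.02) in the Ccdc126-led cluster, 0.87 in the Cxcr2- and Prok2-led cluster, 0.57 in the Hdc-led cluster and 0.40 (0.34 to 0.47) in the Ly6g-led cluster. The latest bin, where Retnlg was lowest, held 33.8% of the thinned cells labelled 4T1p and 16.6% of those labelled 4T1m. The direction was therefore also seen among cells of like score. Mmp8 was higher in 4 of 5 bins, with a log2 ratio of -0.34 (-0.82 to 0.16) in the second.

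None of the 10 members was past 2-fold in either direction (0 to 3 over the alternative settings), where 4.49% of 1984 genes were past 2-fold higher and 2.67% lower in the library labelled 4T1m. With genes down to 50 UMIs, which take in Chil3, these were 6.95% and 3.35% of 4472 genes. The median log2 ratio was 0.040 over the 9 members with at least 200 UMIs and 0.071 over all 1984 genes. Lcn2 stood at 2867 and 3174 CPM (log2 ratio 0.15, 0.08 to 0.21) in the libraries labelled 4T1p and 4T1m, and its ratio was below 0 in 3 alternative settings. Cd177 at 151 and 156 CPM, Pglyrp1 at 728 and 748 CPM and Mmp9 at 420 and 399 CPM had intervals of the ratio that include 0: -0.24 to 0.35, -0.09 to 0.17 and -0.25 to 0.10. The pooled values of Camp (2383 and 1693 CPM, log2 ratio -0.49), Ngp (3242 and 2709 CPM, -0.26) and Ltf (938 and 799 CPM, -0.23) were lower in the library labelled 4T1m. Chil3 was at 39.9 and 29.3 CPM (log2 ratio -0.44, -1.04 to 0.18).

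The directions for Camp, Ngp and Ltf rest on a handful of cells. The ratio for Ltf kept its sign without the Camp-high cells but changed it without the highest cell in each library. Camp-high cells were 7 of the 251 granulocytic-like cells of the library labelled 4T1p (2.79%, 1.13 to 5.66) and 26 of the 1023 of the library labelled 4T1m (2.54%, 1.67 to 3.70), shares whose intervals overlap almost wholly. Without these cells the log2 ratio was 1.01 for Camp (-0.22 to 2.52), 0.86 for Ngp (0.50 to 1.23) and -1.28 for Ltf (-1.87 to -0.68), and Retnlg went to 1.28. Without the single cell highest for the gene in each library it was -0.30 for Camp, -0.054 for Ngp and 0.024 for Ltf. The share of thinned cells with an Ngp UMI went against its CPM, at 4.39% for the cells labelled 4T1p and 6.91% for those labelled 4T1m, so no order was read from it.

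**Figure D5:**
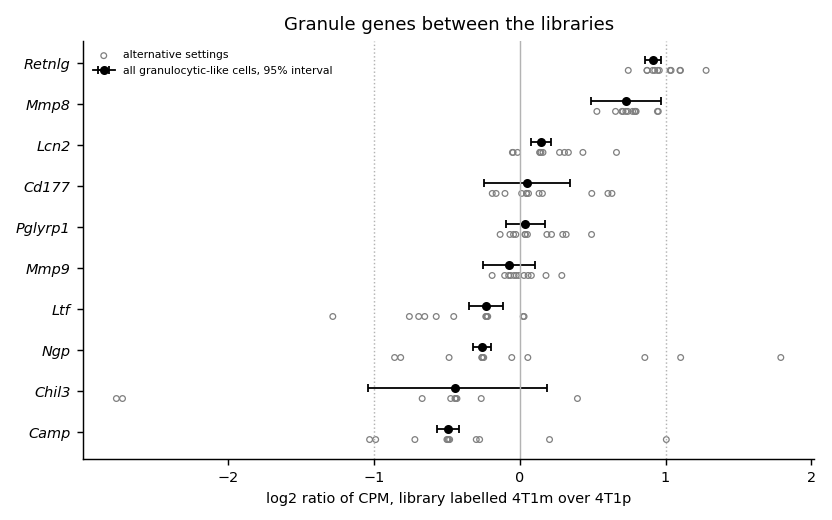
Log2 ratio of CPM between the libraries, 4T1m over 4T1p (horizontal axis), for each granule gene in granulocytic-like cells; filled points with bars are all granulocytic-like cells with 95% counting intervals, open points the alternative settings, and dotted lines 2-fold. Retnlg at 0.91 and Mmp8 at 0.73 lie right of 0 in every setting, while the other 8 genes have settings on both sides.

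Outside the granulocytic-like cells the members split into those that stayed within the lineage and those that did not. Granulocytic-like cells held 98.7% of the UMIs of Retnlg, 96.2% of Pglyrp1, 95.2% of Lcn2, 94.2% of Cd177 and 90.8% of Ltf. Camp (88.4%) and Ngp (88.2%) were lower, and the dividing cell named above alone had 948 of the 959 Camp UMIs found in monocytic-like cells. Mmp8 (79.9%), Mmp9 (62.0%) and Chil3 (17.7%) had sizeable counts elsewhere. In the library labelled 4T1m, monocytic-like cells had 0.668% of the granulocytic level of S100a8, but 27.3% of that of Mmp9, 7.85% of that of Mmp8 and 107% of that of Chil3. For the cells labelled 4T1p these were 2.23% for S100a8, 9.18% for Mmp9, 11.9% for Mmp8 and 187% for Chil3. The dividing cell gave 5090 of the 6722 S100a8 UMIs and 133 of the 351 Chil3 UMIs behind these values.

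Over both libraries together these counts came mostly from one monocytic-like cluster of 448 cells, led by Thbs1, Vcan, Ednrb, Sdc1, Met and Il6. Of the monocytic-like UMIs labelled 4T1p it held 86 of 182 for Mmp9, 93 of 117 for Mmp8 and 200 of 351 for Chil3. Mmp9 had 849 UMIs there, in 83 cells (18.5%, 15.0 to 22.4 without thinning, at a median of 10616 UMIs per cell), with 102, 80 and 72 in the highest cells. Among cells labelled 4T1p 11% had it (5.62 to 18.8), and among those labelled 4T1m 20.7% (16.6 to 25.3). Mmp8 had 273 UMIs in 73 cells of this cluster, with 22% and 14.7% of cells in the 2 libraries. Chil3 had 422 UMIs in 47 of its cells, of which 191 and 124 came from 1 cell in each library, so its level in monocytic-like cells was set by single cells. Chil3 has a near-identical neighbor, Chil4, which had 1 UMI in all kept cells, and reads of such pairs cannot be assigned with certainty. Pglyrp1, which activated lymphocytes can also express, had 14 UMIs in 4 of the 27 T cell-like cells (14.8%, 4.16 to 33.7).

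Other genes tied to neutrophil granules were set beside the members. The 42 listed genes were granule protein genes, 5 genes of storage and release, 7 transcription factors and 5 partners (such as Padi4 and Anxa3). Of the 42, 41 were in the files and 26 had at least 50 UMIs in granulocytic-like cells. The primary granule genes Mpo, Elane and Bpi had 0 UMIs there, Ctsg 1 and Prtn3 24, so transcripts of primary granule proteins other than Lyz2 and Ctsc were nearly absent from granulocytic-like cells. The largest of these differences between the earliest and the latest bin, among the 26, were those of Padi4, the enzyme that citrullinates histones (log2 ratio 3.05, 2.01 to 4.31), and of Cebpe (2.69, 1.35 to 4.39). Anxa3, Lyz2, Cybb and Wfdc21 were also past 2-fold higher in the earliest bin (log2 ratios 2.54, 2.50, 2.42 and 1.21). In the other direction were Cebpb (-1.40), the granule proteoglycan serglycin gene Srgn (-1.14), Slpi (-1.07) and Slc11a1 (-1.05). That makes 6 and 4 of 26, with a median of 0.54, where 10.8% and 8.83% of 4472 genes chosen by the same minimum were past 2-fold in these directions, with a median of 0.036. Of the 6, 2 were partners and 1 a transcription factor, and of the 4, 1 was a transcription factor and 1 a storage gene. Of the UMIs of each gene in granulocytic-like cells, the Camp-high cells among them held 69.2% for Cebpe, 51.1% for Cybb, 50.7% for Lyz2 and 45% for Padi4. They held 2.39% for Srgn and 3.07% for Cebpb. Monocytic-like cells are not counted in these shares. The Camp-high cells were 2.79% and 2.54% of the granulocytic-like cells labelled 4T1p and 4T1m. They were also rich in RNA, so their share of all UMIs was larger than that. That share was not set beside these values, and the part of RNA content was not tested.

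Between the libraries, 1 of the 26 was past 2-fold, where 6.95% and 3.35% of genes with at least 50 UMIs were higher and lower: Olfm4, a secondary granule glycoprotein gene, with 14 and 136 UMIs (log2 ratio 1.30, 0.50 to 2.21, higher in the library labelled 4T1m). The median over the 26 was 0.17.

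The genes most like each member along the axis were named by Pearson's r of log2(CPM + 10) over 10 points, the 5 bins in each library, among 1975 other genes. These points share cells and depth, so r is a description. The metabolic gene Tkt, which encodes transketolase, came first for Camp (0.99), Ngp (0.98) and Chil3 (0.98), and Tecr for Ltf (0.97). Cd177 was closest to Ifitm6 (0.99), Pglyrp1 to S100a8 (0.97) and Lcn2 to Adpgk (0.97), although Ifitm6 and Adpgk are among the early genes that define the axis. Retnlg stood apart, with S100a6 first at 0.95, Mmp8 had Rps27a (0.94) and Mmp9 had Reep3 (0.94).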

How the data were processed

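The authors aligned 10x Genomics 3′ reads to mm10 with Cell Ranger (software version 3.1.0 per the file headers, while the methods of the study name another version), and the deposited values are raw UMI counts for each gene in each barcode called as a cell. From these, SCTransform, 11 principal components and Louvain clusters at resolution 0.8 were computed on both libraries merged, with the 10 granule genes left out and doublets kept. Clusters in which most B cell or T cell markers were common were named first. For the others, the share of cells with each granulocytic or monocytic marker was scaled to its highest share in any cluster. The list with the higher mean gave the lineage. Levels are summed UMIs as CPM (exact Poisson intervals), shares have exact binomial intervals, and a log2 ratio takes its interval from the exact binomial share of both counts. A pseudocount of 10 CPM served only for the likeness of genes. Genes needed 200 UMIs to enter the background counts. The members, the gene lists, the axis and the tests were chosen with earlier results of these data known. Named genes are the 10 members, the listed granule, axis and marker genes, and the genes most like each member. Of the 28 alternatives planned and 2 added after seeing the data, all were run. The code for ratios and intervals was tested on simulated data. One listed gene, Cebpd, was not analysed here. Clustering ran in Seurat 5.3.0, sctransform 0.4.2 and Matrix 1.6.5 (R 4.3.3). Doublet scores (Scrublet) came from scanpy 1.11.5, and the rest from pandas 2.3.3, scipy 1.17.1, numpy 2.4.6 and matplotlib 3.10.9 under Python 3.11.15.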

Additional observations from a re-analysis of the deposited data

Results flagged for a closer look

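At least 5 Camp UMIs were also found in 3 barcodes that the limits on cell quality had left out, and 2 of these had more than 10. A barcode of the library labelled 4T1p with 27.5% mitochondrial UMIs had 334 Camp UMIs beside 498 of Ngp, 122 of Ltf and 261 of Lcn2. A barcode of the library labelled 4T1m with 30.9% mitochondrial UMIs had 8 Camp UMIs beside 85 of Ngp and 473 of Retnlg. Another, also of the library labelled 4T1m, exceeded the UMI limit with 36981 UMIs and had 518 Camp, 1784 Ngp, 304 Ltf and 614 Lcn2 UMIs, with no Mmp8 or Mmp9 UMI. It also had 47 Mki67, 36 Top2a, 11 Elane, 3 Mpo and 20 Fcnb UMIs, and was the only barcode of the 3 with primary granule transcripts of Elane or Mpo. All 3 counts are above the 3 UMIs that a count of 0 allows. Whether each barcode is 1 cell was not tested.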

How the results depend on the processing

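No paired analysis was possible because each condition is 1 library. For the same reason no library could be left out in turn. The number of members past 2-fold between the libraries, 0 in all granulocytic-like cells, was 2 when the clusters were built with the granule genes (Camp at -1.03 and Chil3 at -2.76) and 2 with log-normalization for the clusters (Chil3 at -2.72 and Retnlg at 1.04), and in both the dividing Camp-high cell of the library labelled 4T1p joined the granulocytic-like cells. It was 2 without the earliest bin of the axis (Retnlg at 1.03 and Ngp at 1.79) and 3 without the Camp-high cells (Retnlg at 1.28, Ltf at -1.28 and Camp at 1.01, with an interval of -0.22 to 2.52). It was 1 with each cell weighing the same (Retnlg at 1.10), 1 without the cell with the most UMIs of the gene in each library (Retnlg at 1.10) and 1 with each bin weighing the same (Ngp at 1.10). It stayed 0 with the Ptprc filter of the study, without doublets, at a mitochondrial limit of 5%, at resolution 0.4 and with granule genes left out of the total.

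Log2 ratios that changed sign were those of Camp (0.20 without the earliest bin, 1.01 without the Camp-high cells), Ngp (1.79 and 0.86 likewise, 0.056 with equal cells, 1.10 with equal bins), Ltf (0.030 with equal cells, 0.024 without the highest cell in each library) and Lcn2 (-0.045 with the Ptprc filter, -0.050 with the granule genes in the clustering, -0.014 with log-normalization). The Camp values rest on few UMIs, with intervals of -1.40 to 2.23 and -0.22 to 2.52. Among these changes only the Ngp values of 1.79 and 0.86 had intervals that exclude 0. Ratios nearer 0 or on few UMIs also crossed it: Chil3 (0.40 without the highest cell), Mmp9 (0.030 to 0.29 in 5 settings), Cd177 (-0.19 to -0.10 in 3) and Pglyrp1 (-0.13 to -0.026 in 4). The cause was not tested beyond what leaving out those cells shows by construction. Retnlg ran from 0.74 to 1.28 and Mmp8 from 0.53 to 0.95 over their settings. Chil3 without the earliest bin or the Camp-high cells had no UMI in one library and gives no value, as did Camp and Chil3 within bins.

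The share of Camp-positive cells with Ngp, 89.7%, was 75.8% without thinning. Members with a mean bin under 1.5 numbered 4 in every setting. With genes down to 50 UMIs, 461 of 4472 genes were past 2-fold between the libraries, against 142 of 1984. Depth limits Chil3 most, with 125 UMIs in granulocytic-like cells.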
